A study of Hordeum vulgare with 18 samples.

Results

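Leaves of highland barley grown with 40% of their nitrogen from organic fertilizer were compared with leaves grown on chemical fertilizer alone. These are 6 of the 18 libraries of the series, 3 libraries at 40% and 3 controls at 0%, and they were taken by the tissue and rate given in the labels. Highland barley is a hulless barley of high altitudes, here grown in pots of 3.5 kg soil and sampled at flowering. A control pot was given urea (357 mg), superphosphate (1545 mg) and potassium sulfate (140 mg). At 40% these amounts were lowered to 215, 1443 and 122 mg and organic fertilizer (1117 mg) was added. Total nitrogen, phosphorus and potassium were meant to be equal at all rates. The other libraries are 3 leaves at 100% organic nitrogen (1289 mg superphosphate, 96 mg potassium sulfate, 2793 mg organic fertilizer and no urea) and 9 roots, 3 at each rate. Titles say leaf, but the design text refers to everything above ground. Whether replicates were different plants or pots is not stated, so the p-values reflect no more than the variation among the libraries given, which may be technical.

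At flowering a cereal leaf carries most of its nitrogen in the chloroplast, above all in Rubisco and the chlorophyll-binding proteins. When the leaf ages, chlorophyll is taken apart step by step, vacuolar and other proteases break proteins down, membrane lipids are used as fuel, and the nitrogen leaves as amino acids through the phloem. Cytokinins, hormones made partly in roots, delay this process, and NAC transcription factors of the NAM-B1 type, known from wheat, promote it.

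Control leaf 2 stood apart from the other controls before any gene was considered. Over the 20032 genes tested, its root mean square log2 difference was 0.966 to the mean of the other controls and 0.846 to the mean of the 40% leaves, whereas control leaves 1 and 3 were 0.859 and 0.724 from their own group and 1.18 from the 40% leaves. Among the 40% leaves, leaf 3 was as far from its own group (0.966), but farther from the controls (1.18). On the first principal component of the 6 libraries (46.4% of the variance), control leaves 1 and 3 lay at 92.0 and 93.6, control leaf 2 at 3.21 and the 40% leaves between -74.6 and -53.3. Counts are therefore given with all libraries and without control leaf 2. Of the 101 genes named in the text, 98 could be tested with all libraries, and 2 of these were called; the adjusted p of the other 96 ran from 0.069 to 0.94. Where a gene below has 1 test value alone, it is the one without control leaf 2 unless stated otherwise. That library was singled out by its values, not by any label, so the tests without it are conditional on that choice.

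**Figure D1:**
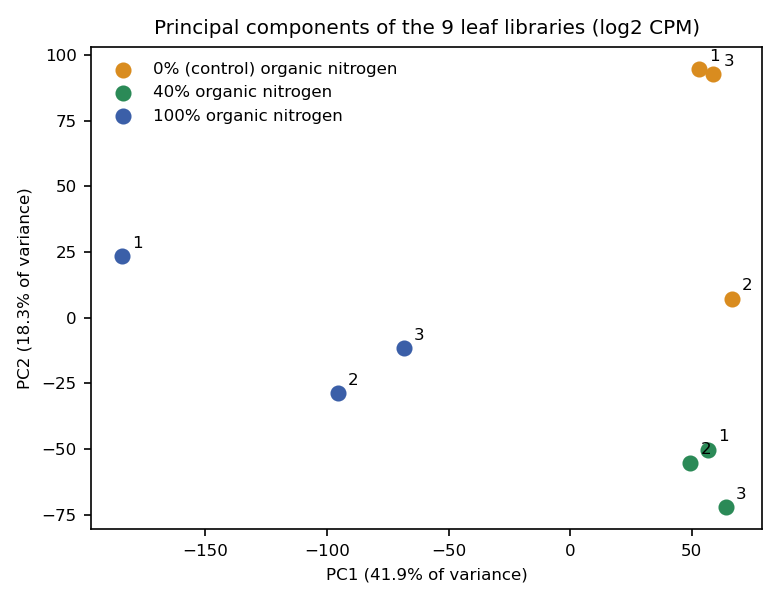
First (horizontal) and second (vertical) principal component of log2 CPM (counts scaled to a library total of 1000000) in the 9 leaf libraries, coloured by the rate of organic nitrogen and numbered by replicate. On the second component (18.3% of the variance) control leaves 1 and 3 lie at 94.7 and 92.6, control leaf 2 at 7.23 and the 40% leaves between -72.1 and -50.2. On the first (41.9%) control leaf 2, at 66.45, is not apart from control leaves 1 and 3 (52.95 and 58.96) or the 40% leaves (49.49 to 63.99).

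The 6 libraries held 16489656 to 18985201 counts each. Levels are given in CPM, with libraries in the order of their replicate numbers, and changes as log2 of 40% over control, with the standard error (SE). Genes listed as leaf mesophyll markers summed to 59800 to 110000 CPM in controls and 112000 to 129000 at 40%, against 255 to 394 CPM in the roots at the same rates. Of 34 loci listed as root markers, 17 had no count in these leaves and the rest summed to 1340 to 2150 CPM in controls and 1180 to 1660 at 40% (2390 to 3670 in roots). Markers of pollen and flower summed to 696 to 790 and 712 to 822 CPM, those of grain to 306 to 412 and 320 to 368, and those of stem and vascular tissue to 165 to 197 and 189 to 311, with 74 of 126, 22 of 38 and 78 of 125 loci at no count.

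With all libraries, edgeR's quasi-likelihood test called 2 of 20032 genes (0.00998%) at an adjusted p below 0.05, 1 higher and 1 lower (0.00499% each). The higher gene was LOGL5 D1007_47842 (scaffold SDOW01000718.1, 1339076 to 1339822, plus strand), annotated as an enzyme that releases active cytokinins from their nucleotides. Its levels were 10.5, 11.3 and 14.9 CPM in the control leaves and 51.1, 56.2 and 57.2 CPM at 40%. Control leaf 2 lay among the other controls for this gene, and the groups were far from overlapping. The rise was 2.17 ± 0.22 (adjusted p = 0.023) and 2.15 ± 0.26 without control leaf 2 (adjusted p = 0.0037, or 0.053 without control leaf 1 as well). The 100% leaves stood higher still, at 164, 131 and 179 CPM, and differed from the 40% leaves by 1.78 on the log2 scale (adjusted p = 0.0013, with 18.6% of genes called in that comparison). LOGL5 had 13.8, 27.4 and 39.0 CPM in the 40% roots and 9.66 to 12.1 CPM in the control roots. That difference was not called in the root fit (1.25 ± 0.54, adjusted p = 0.32).

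The lower gene was phosphoglycerate dehydrogenase D1007_22029 (SDOW01000218.1, 880861 to 883866, minus strand), which opens the plastid route to serine. Control leaves held 64.4, 55.2 and 61.2 CPM, 40% leaves 15.7, 14.8 and 14.2 CPM, and 100% leaves 44.1, 51.1 and 66.6 CPM. Only the 40% leaves were low among the 9 leaf libraries, and here too control leaf 2 went with its group. The fall was -2.02 ± 0.21 (adjusted p = 0.023), or -2.05 ± 0.23 without control leaf 2 (adjusted p = 0.0026), and the 100% leaves exceeded the 40% leaves by 2.11 (adjusted p = 0.00063). With all libraries, both calls were lost when any one of the 6 compared libraries other than control leaf 2 was left out (adjusted p from 0.14 to 0.24) and over the alternatives adjusted p ran from 3.8e-16 to 0.42.

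Other genes of the same serine route, for its first and its later steps, were also low at 40%. They were looked up after the called dehydrogenase had been seen. A second phosphoglycerate dehydrogenase, D1007_26296, had 73.5, 55.9 and 56.2 CPM in controls and 20.3, 20 and 21.6 CPM at 40%. Phosphoserine aminotransferase D1007_46660, the middle step, had 59.2, 48.5 and 47.6 against 19.2, 18.9 and 21.7 CPM. Phosphoserine phosphatase D1007_07272, the last step, had 24.7, 10.1 and 46.7 against 5.03, 2.58 and 6.39 CPM. In all of these every 40% leaf lay below every control leaf, control leaf 2 included. Changes were -1.59 ± 0.29, -1.38 ± 0.24 and -2.54 ± 0.61 with all libraries (adjusted p = 0.09, 0.09 and 0.096) and were called without control leaf 2 (adjusted p = 0.023, 0.023 and 0.016). These calls were lost when any further library was left out (up to 0.19), except that phosphoserine phosphatase kept its call without 40% leaf 3. The second dehydrogenase and the aminotransferase were as low in 100% leaves, at 11.7 to 26.5 and 11.2 to 20.4 CPM, while the first dehydrogenase was not. Phosphoserine phosphatase, at 11.1, 20.4 and 37.8 CPM, was above the 40% leaves by 2.58 (adjusted p = 0.019, lost without 40% leaf 1 or 2, up to 0.072).

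**Figure D2:**
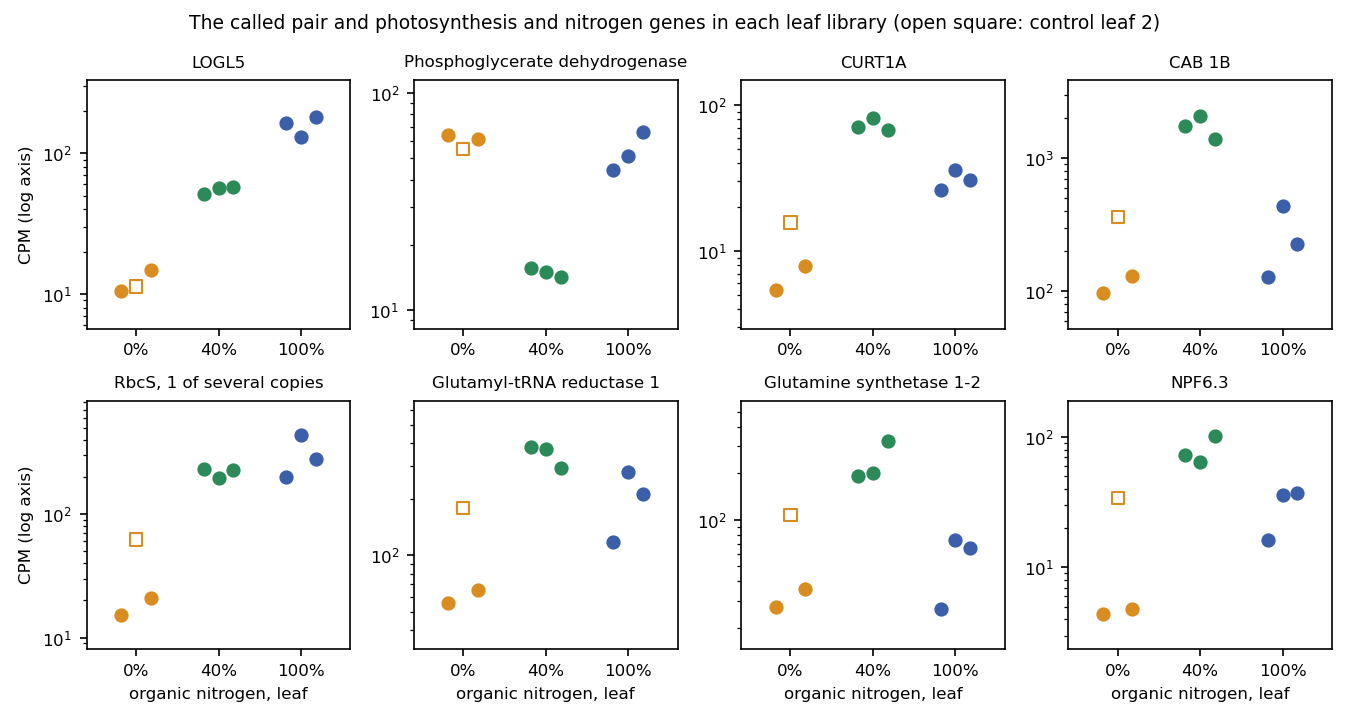
Level of 8 genes in each leaf library, in CPM on a log axis, by rate of organic nitrogen; the open square is control leaf 2. LOGL5 and phosphoglycerate dehydrogenase separate the 40% leaves from all 3 controls by a wide gap, and in the other 6 panels control leaf 2 lies between the other controls and the 40% leaves.

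Beyond these, the count of calls depended on the test used, on the libraries fitted together and, in edgeR's leaf fit, on control leaf 2. Without that library, edgeR called 1035 of 20727 genes (4.99%), 490 higher (2.36%) and 545 lower (2.63%). With all libraries 3635 genes (18.1%) had an unadjusted p below 0.05, DESeq2 called 1585 (7.91%, 3.73% higher and 4.18% lower) and limma voom with sample weights 2123 (10.6%), in which control leaf 2 received the lowest weight of the 6 libraries (0.59, against 0.886 to 2.86). Of the 1035 genes, 719 had all 3 controls on one side of all 3 40% leaves (over all genes with all libraries, 14% stood above and 13.8% below), 914 had an unadjusted p below 0.05 with all libraries, and 726 were called by DESeq2 with all libraries. The libraries that called these genes enter all of these counts, and only control leaf 2 is new to them. The counts are therefore largely given by the choice of genes and are no separate support. The 1035 fell to 205 when control leaf 1 was also left out and to 157 with control leaf 3, and to 345, 471 and 620 without 40% leaf 1, 2 or 3.

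Control leaf 2 was intermediate over most of those genes. Placed on a line from the mean of control leaves 1 and 3 to the mean of the 40% leaves, it had a median position of 0.712, with quartiles of 0.499 and 0.900. It was nearer to the 40% leaves in 770 of 1029 genes (74.8%), 348 of the 490 higher and 422 of the 539 lower. Over all genes tested with all libraries that share was 49.8%, and each of the other compared libraries was nearer to the other group in 27.8 to 39% of genes. The 1029 genes were called for a gap between control leaves 1 and 3 and the 40% leaves, so a position inside that gap is partly given by the choice. In 168 genes it went past the 40% mean and in 18 it lay beyond the mean of the other controls.

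**Figure D3:**
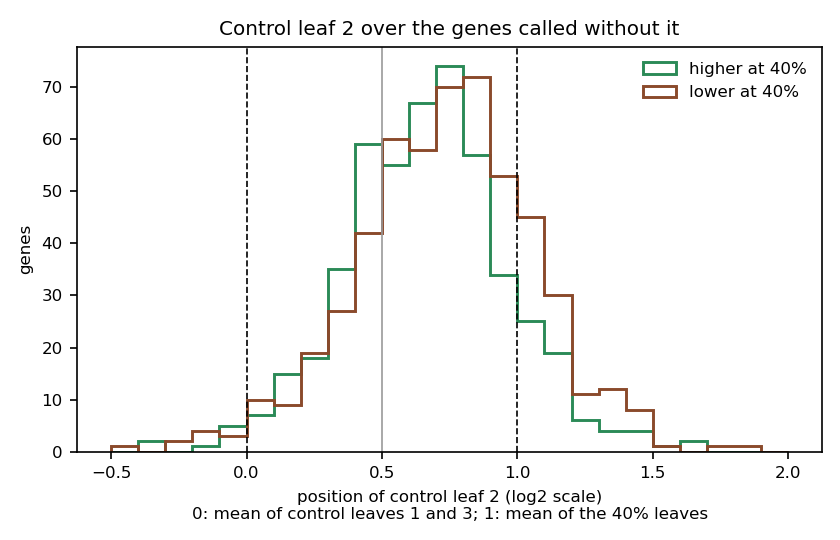
Number of genes (vertical axis) by the position of control leaf 2 on the log2 scale (horizontal axis), for the genes called higher or lower at 40% without that library; 0 is the mean of control leaves 1 and 3, and 1 the mean of the 40% leaves. Both distributions lie mostly nearer to 1 than to 0, with a median of 0.663 for the higher and 0.754 for the lower genes.

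Chlorophyll breakdown and senescence genes were far lower at 40% than in control leaves 1 and 3. Of 15 tested, 7 fell and 1 rose without control leaf 2 (53.3% called, against 4.99% over all genes). The median log2 change was -1.69, against 0.02 over all genes. With all libraries 0 were called (median -1.44), with 9 lower and 1 higher at an unadjusted p below 0.05, where the background was 9.82 and 8.33%. DESeq2 with all libraries called 6 lower and 1 higher (4.18 and 3.73% over all genes). SAG39 D1007_05290 (SDOW01000040.1, 3274984 to 3276991, plus strand), a cysteine protease named for senescence, had 15139, 749 and 14013 CPM in controls and 276, 357 and 316 CPM at 40%. STAY-GREEN D1007_08947, the magnesium dechelatase that starts the breakdown of chlorophyll a (SDOW01000068.1, 1035361 to 1037376, plus strand), had 655, 54.0 and 634 against 22.7, 17.2 and 16.0 CPM. Pheophytinase D1007_51844, the next enzyme, had 1270, 141 and 1713 against 71.8, 62.2 and 70.3 CPM. In all 3 genes control leaf 2 was much nearer to the 40% leaves than to the other controls, yet above every one of them.

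Without control leaf 2 the falls were -5.49 ± 0.65 for SAG39, -5.09 ± 0.45 for STAY-GREEN and -4.43 ± 0.48 for pheophytinase (adjusted p = 0.0033, 0.0011 and 0.0021), and no further library left out ended a call (at most 0.028). With all libraries they were -4.97 ± 1.04, -4.59 ± 0.83 and -3.93 ± 0.80 (adjusted p = 0.091, 0.09 and 0.091). The other members that fell were pheophorbide a oxygenase D1007_52605, which opens the chlorophyll ring, the chlorophyll b reductases NYC1 D1007_36087 and NOL D1007_32500, and the protease SAG12 D1007_56869. They were chosen after their values were seen, as were the genes of the next paragraph. Pheophorbide a oxygenase had 1305, 542 and 1421 against 302, 320 and 195 CPM, NYC1 413, 209 and 475 against 158, 139 and 108 CPM. These 4 calls were lost when control leaf 3 was left out too (adjusted p up to 0.097), that of SAG12 in this case alone. NOL lost its call with any further library left out. NYC1 and pheophorbide a oxygenase also lost theirs without control leaf 1 or 40% leaf 1, and the oxygenase without 40% leaf 3. For NOL control leaf 2, at 83.3 CPM, lay among the 40% leaves (75.8 to 99.3 CPM). The member that rose was DIN1 D1007_08360, named for senescence but with 15.5, 26.3 and 15.7 CPM at 40% and 0, 11.1 and 0 CPM in controls.

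The NAC factors of the wheat type, NAM-B2 and NAM-B1, were low as well, but the list of NAC factors went both ways. Without control leaf 2, 2 of 58 rose and 2 fell (6.9% called, against 4.99% over all genes). With all libraries 0 of 56 were called, with 7 higher and 7 lower at an unadjusted p below 0.05 (8.33 and 9.82% over all genes). DESeq2 called 3 higher and 2 lower (3.73 and 4.18% over all genes). NAM-B2 D1007_41116 had 253, 35.2 and 248 CPM in controls and 24.4, 16.6 and 28.9 CPM at 40%, and fell by 3.42 without control leaf 2 (SE 0.42, adjusted p = 0.0035, at most 0.031 with a further library left out; 0.093 with all libraries). NAM-B1 D1007_07007 had 237, 39.3 and 302 against 30.6, 38.3 and 36.3 CPM and fell by 2.91 (SE 0.46, adjusted p = 0.009; 0.12 with all libraries), a call lost without control leaf 1 or 3 or 40% leaf 1 (up to 0.076). Control leaf 2 lay just above all 40% leaves for both. Chlorophyllase-2 D1007_38581, which cuts the tail from chlorophyll, did not follow, with 199, 134 and 127 against 111, 127 and 124 CPM (adjusted p = 0.4 without control leaf 2 and 0.45 with it).

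In the 100% leaves the members took different levels. SAG39 had 5138, 1217 and 1429 CPM there, STAY-GREEN 257, 155 and 83.0 CPM and pheophytinase 643, 208 and 270 CPM. All 3 exceeded the 40% leaves (log2 3.30, 3.41 and 2.73, adjusted p = 0.04, 0.017 and 0.034), and each of these calls was lost when any 40% leaf was left out (up to 0.13). Those of SAG39 and pheophytinase were also lost without 100% leaf 1. SAG12 at 153, 95.1 and 125 CPM against 43.5, 42.4 and 41.0 CPM kept its call in every such test (adjusted p = 0.0056, at most 0.034). Pheophorbide a oxygenase at 430, 181 and 231 CPM and NAM-B2 at 59, 32.1 and 20.7 CPM were not called between 100% and 40% (adjusted p = 0.66 and 0.32), and both overlapped the 40% leaves.

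**Figure D4:**
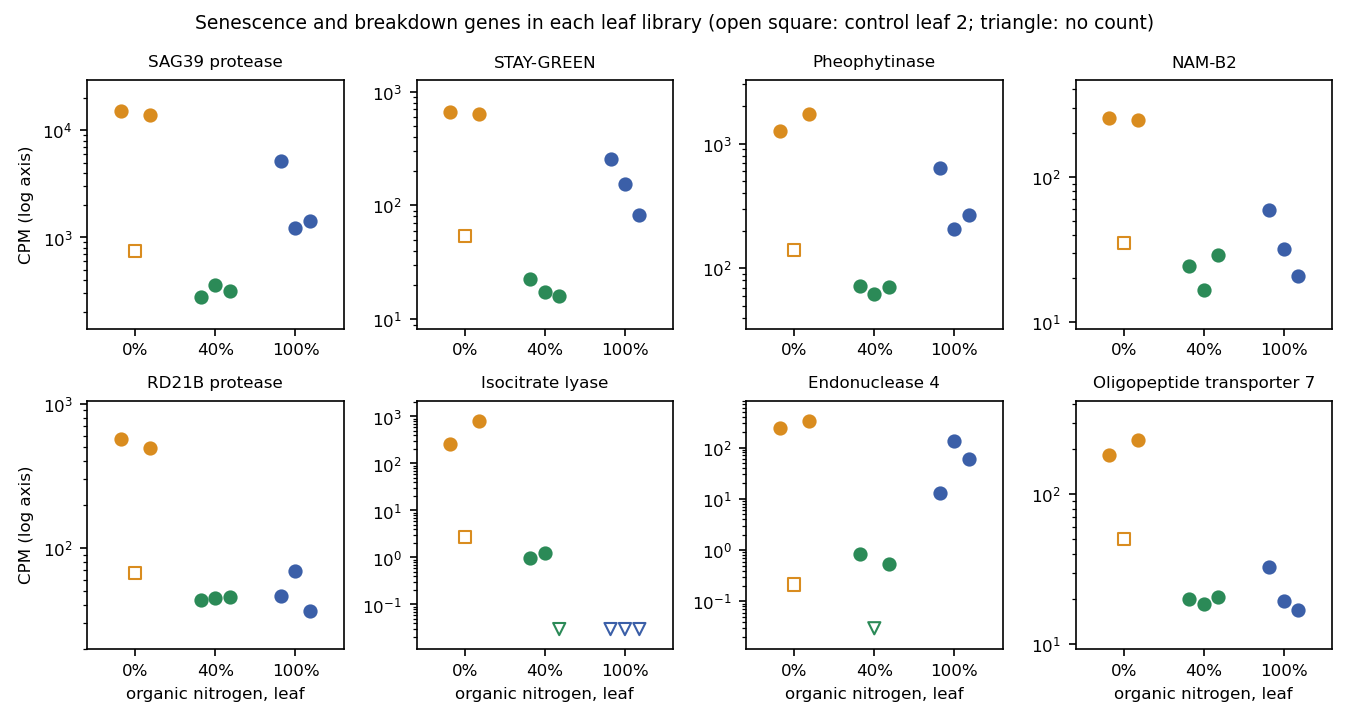
Level of 8 genes in each leaf library, in CPM on a log axis, by rate of organic nitrogen; open squares are control leaf 2 and open triangles at the foot of the axis are libraries with no count. Control leaves 1 and 3 are high in every panel, and control leaf 2 sits near the 40% leaves, for SAG39 at 749 CPM between 14013 and 357.

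Genes that dismantle proteins, nucleic acids and lipids showed the same arrangement. RD21B D1007_04802, a vacuolar cysteine protease, had 574, 66.9 and 492 CPM in controls and 43.4, 45.2 and 45.4 CPM at 40%. Oryzain alpha D1007_26328, another of that family, had 5622, 1633 and 7088 against 1245, 1304 and 891 CPM. Vacuolar-processing enzyme D1007_57094, which activates vacuolar proteases and was chosen after its values were seen, had 7916, 2617 and 6837 against 1210, 1239 and 1554 CPM. Every control leaf exceeded every 40% leaf in each, control leaf 2 by the least. Their changes without control leaf 2 were -3.55 ± 0.28, -2.43 ± 0.28 and -2.45 ± 0.29 (adjusted p = 0.00085, 0.0029 and 0.0033), and -3.08 ± 0.64, -2.05 ± 0.47 and -2.12 ± 0.42 with it (0.091, 0.093 and 0.091). In the list of proteases 18 of 128 fell and 6 rose without control leaf 2 (18.8% called, against 4.99% over all genes, median -0.25). With all libraries 0 of 122 were called, with 29 lower and 7 higher at an unadjusted p below 0.05 (9.82 and 8.33% over all genes). DESeq2 with all libraries called 18 lower and 3 higher (4.18 and 3.73% over all genes). The list summed to 38900, 12200 and 40000 CPM in controls against 9140, 9060 and 8380 CPM at 40%.

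In fatty acid breakdown and the glyoxylate cycle 6 of 23 fell and 0 rose without control leaf 2 (26.1% called, against 4.99% over all genes, median -0.59). With all libraries 0 were called, with 10 lower and 1 higher at an unadjusted p below 0.05 (9.82 and 8.33% over all genes), and 6 lower by DESeq2 (4.18%). Isocitrate lyase D1007_60153 belongs to the glyoxylate cycle, in which acetyl groups from lipids become sugar. It had 256, 2.78 and 818 CPM in controls and 0.970, 1.26 and 0 CPM at 40%, and no count at 100%. The locus D1007_01677 is in the list by the name malate synthase, but its other annotations, a membrane protein and a PAP2 domain, go against that name. It had 123, 24.7 and 130 against 38.0, 27.6 and 42.0 CPM, where control leaf 2 lay below all 40% leaves. The peroxisomal thiolase KAT2 D1007_19967, of beta-oxidation, had 527, 248 and 564 against 145, 139 and 126 CPM and fell by 1.97 without control leaf 2 (SE 0.25, adjusted p = 0.0047; 0.091 with all libraries). Endonuclease 4 D1007_26265, a nuclease, had 237, 0.214 and 323 CPM in controls and 0.849, 0 and 0.538 CPM at 40%, so that control leaf 2 stood with the 40% leaves. The 7 loci named here and above for proteins, lipids and nucleic acids kept their calls without control leaf 2 when any further library was left out (adjusted p at most 0.046).

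Photosynthesis genes were higher at 40%. Without control leaf 2, 18 of 54 photosystem and antenna genes rose and 0 fell (median 1.00), 15 of 44 of the Calvin cycle and photorespiration rose and 0 fell (median 0.51), and 6 of 22 of chlorophyll synthesis rose and 0 fell (median 0.37). These calls were 33.3, 34.1 and 27.3% of the lists, against 2.36% called higher and 2.63% lower over all genes. With all libraries 0 of them were called by edgeR, 23, 16 and 5 were higher and 2, 3 and 1 lower at an unadjusted p below 0.05, and DESeq2 called 18, 14 and 3 higher and 1, 2 and 0 lower. Over all genes 8.33% were higher and 9.82% lower at that unadjusted p, and DESeq2 called 3.73% higher and 4.18% lower. Light-harvesting and reaction centre transcripts summed to 84500, 120000 and 65000 CPM in controls and 126000, 149000 and 141000 CPM at 40%. Chlorophyll synthesis summed to 3200, 7160 and 3910 against 7350, 7270 and 5930 CPM. Control leaf 2 was the highest control in both sums and overlapped the 40% leaves in the second. The list of mesophyll markers holds chlorophyll-binding and Rubisco small subunit genes as well, so it is no separate measure. In bulk tissue fewer cells of a type and less RNA per cell cannot be told apart.

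The rise was uneven among copies of one gene family. Chlorophyll a-b binding protein 1B D1007_08185 had 97.8, 364 and 131 CPM in controls and 1747, 2081 and 1407 CPM at 40% (3.97 ± 0.52 without control leaf 2, adjusted p = 0.0049, up to 0.064 without control leaf 1 or 3 as well; 3.14 ± 0.58 with it, 0.091). In 100% leaves it was at 129, 435 and 227 CPM, as low as in the controls and 2.49 below the 40% leaves on the log2 scale (adjusted p = 0.016, lost without 40% leaf 1 or 2). The family member with the most counts, D1007_43312, had 19908, 23752 and 12755 CPM against 19201, 22826 and 21654 CPM, and its groups overlapped (0.40 ± 0.38, adjusted p = 0.63). CAB8 D1007_02281, of photosystem I antennae, had 58.4, 38.7 and 49.8 against 162, 144 and 152 CPM, with control leaf 2 the lowest control (1.64 ± 0.21 with all libraries, adjusted p = 0.069; 1.52 ± 0.21 without control leaf 2, 0.0057, or 0.084 without control leaf 3 as well). The sources used here do not say how reads shared by near-identical copies were counted, so differences between copies are uncertain.

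The Rubisco small subunit copies named here rose alike, while Rubisco activase, a separate gene, was not called. The small subunit copies D1007_17547 and D1007_17551, both on scaffold SDOW01000160.1, had 16.9, 193 and 27.6 against 438, 391 and 367 CPM and 15.3, 62.3 and 21.0 against 230, 195 and 225 CPM. Another copy, D1007_36511, chosen after its values were seen, had 168, 1738 and 385 against 3899, 4528 and 2939 CPM. All of them rose without control leaf 2 by 3.6 to 4.19 (adjusted p from 0.0014 to 0.0037, at most 0.037 with a further library left out), and with all libraries their adjusted p was 0.18, 0.091 and 0.16. In control leaf 2 their levels lay between the groups and nearer to the 40% leaves on a log scale. Rubisco activase D1007_06852, with the most counts of the Calvin list, had 10446, 16843 and 11207 against 13892, 13430 and 9484 CPM and was not called (adjusted p = 0.94, and 0.78 without control leaf 2).

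Other chloroplast genes were higher as well. CURT1A D1007_21792, which bends the grana edges, had 5.38, 15.7 and 7.89 CPM in controls and 71.0, 81.4 and 68.1 CPM at 40%. It rose by 3.51 ± 0.28 without control leaf 2 (adjusted p = 0.00091, at most 0.015 with a further library left out) and was 2.93 ± 0.37 with it (0.069). PsbY D1007_38314, a small photosystem II subunit, had 258, 889 and 323 against 1348, 1792 and 1498 CPM. FKBP16-1 D1007_55944, a chloroplast isomerase, had 18.4, 17.4 and 17.5 against 36.0, 36.5 and 35.0 CPM, a small difference (1.01 ± 0.17, adjusted p = 0.09 with all libraries) in which control leaf 2 matched the other controls. Alpha carbonic anhydrase 1 D1007_52866 had 2.08, 7.53 and 2.04 against 36.5, 34.7 and 36.4 CPM (4.14 ± 0.33 without control leaf 2, adjusted p = 0.00091, and 3.19 ± 0.51 with it, 0.09).

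In chlorophyll synthesis the genes that rose began at its first committed step. Glutamyl-tRNA reductase 1 D1007_53602, the controlled entry enzyme, had 55.6, 180 and 65.3 CPM in controls and 382, 373 and 292 CPM at 40% (2.56 ± 0.36 without control leaf 2, adjusted p = 0.006). Glutamyl-tRNA reductase 2 D1007_50183 had 73.7, 147 and 77.5 against 263, 229 and 201 CPM (1.64 ± 0.24, 0.0065). Both had control leaf 2 between the groups, and both calls were lost when control leaf 1 or 3 was left out as well (up to 0.085). The magnesium-protoporphyrin cyclase D1007_51759, with the most counts of the list, had 856, 2078 and 1080 against 2355, 1999 and 1732 CPM and was not called (adjusted p = 0.11 without control leaf 2 and 0.47 with it).

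**Figure D5:**
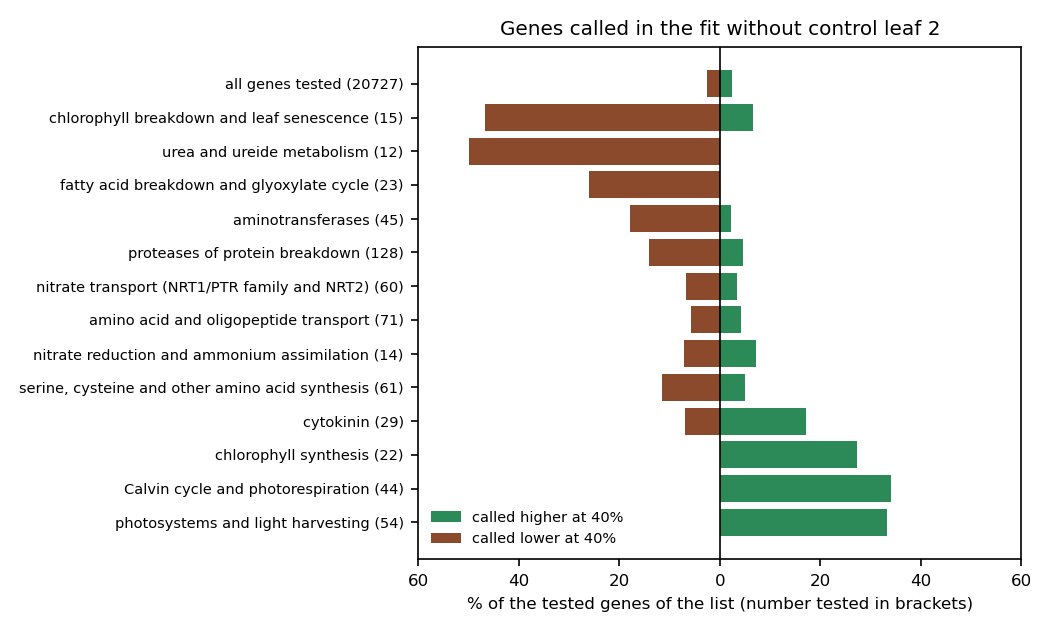
Share of the tested genes of each list (number tested in brackets) that edgeR called higher (to the right) or lower (to the left) at 40% without control leaf 2, in percent. Over all genes 2.36% were called higher and 2.63% lower; photosystem, Calvin cycle and chlorophyll synthesis genes were called in the higher direction alone, and urea, ureide and lipid breakdown genes in the lower alone.

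Nitrogen genes were called in both directions. In nitrogen salvage, without control leaf 2, 6 of 12 urea and ureide genes fell and 0 rose (50% called, against 4.99% over all genes, median -0.91). With all libraries 0 were called, with 6 lower and 1 higher at an unadjusted p below 0.05 (9.82 and 8.33% over all genes). DESeq2 with all libraries called 3 lower and 1 higher (4.18 and 3.73% over all genes). DUR3 D1007_41289, the high-affinity urea carrier, had 127, 31.0 and 145 CPM in controls and 12, 19.9 and 14.5 CPM at 40% (-3.09 ± 0.48 without control leaf 2, adjusted p = 0.0087, up to 0.071 with a further library left out). Uricase D1007_27011, of purine breakdown, had 281, 132 and 282 against 118, 97.3 and 120 CPM (-1.32 ± 0.19, 0.0062, up to 0.057). The other members were xanthine dehydrogenase, ureidoglycolate hydrolase D1007_27818 and neighbouring loci annotated as allantoinase on scaffold SDOW01000729.1 (1502269 to 1502793 and 1502856 to 1504137, minus strand), which may be parts of one gene. The larger allantoinase locus had 16.5, 2.56 and 17.3 against 2.00, 1.84 and 1.73 CPM. Their calls were lost when any further library was left out, except that the smaller allantoinase locus kept its call without 40% leaf 3. In each of these genes every 40% leaf lay below control leaves 1 and 3, which is near given, as those libraries made the calls. Control leaf 2 lay above every 40% leaf for DUR3, uricase and the larger allantoinase locus. It lay among them for xanthine dehydrogenase (106 against 81.9 to 115 CPM) and ureidoglycolate hydrolase (47.3 against 43 to 53.1 CPM). For the smaller allantoinase locus it lay below them (1.82 against 2.12 to 5.08 CPM).

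Among glutamine synthetases, which fix ammonium into glutamine, the genes went opposite ways. D1007_38808 had 2279, 639 and 1887 CPM in controls and 397, 411 and 528 CPM at 40% (-2.21 ± 0.33 without control leaf 2, adjusted p = 0.0072; -1.85 ± 0.46 with it, 0.1). The cytosolic isozyme 1-2 D1007_33459 had 27.2, 107 and 36.0 against 192, 200 and 326 CPM (2.94 ± 0.45, adjusted p = 0.0082; 2.07 ± 0.55 with it, 0.12). The calls were lost without control leaf 1 (both, 0.061 and 0.097) or 3 (isozyme 1-2). The chloroplast isozyme D1007_32310 had 465, 732 and 726 against 899, 1114 and 876 CPM, all 40% leaves above all controls, but was not called (adjusted p = 0.19 and 0.27). Nitrite reductase D1007_08673 had 179, 120 and 160 against 82.6, 121 and 92.1 CPM (adjusted p = 0.35 and 0.41), far below the 465, 521 and 1160 CPM of the 100% leaves. The last 2 were chosen after their values were seen.

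Carriers of nitrate and amino acids were mixed. In the nitrate transport list 2 of 60 rose and 4 fell without control leaf 2 (median 0.09, and -0.31 with it), and in that of amino acids and oligopeptides 3 of 71 rose and 4 fell, shares of 10 and 9.86% against 4.99% over all genes. With all libraries 0 of 57 and 0 of 67 were called by edgeR. At an unadjusted p below 0.05 (8.33% higher and 9.82% lower over all genes) 5 and 7 were higher, and 12 and 9 lower. DESeq2 called 3 and 3 higher, and 7 and 5 lower (3.73% higher and 4.18% lower over all genes). NPF6.3 D1007_28195, the kind that senses and imports nitrate in Arabidopsis, had 4.42, 34 and 4.77 CPM in controls and 73.3, 64.0 and 102 CPM at 40% and rose by 4.13 (SE 0.41, adjusted p = 0.0016, at most 0.031 with a further library left out; 0.14 with all libraries), with control leaf 2 between the groups; it was chosen after its values were seen. NPF6.4 D1007_17999 had 419, 263 and 339 against 160, 192 and 173 CPM and 669, 539 and 476 CPM at 100%. NPF6.4 was the lowest of all 3 rates at 40%, with no overlap between groups (-1.09 ± 0.25 without control leaf 2, adjusted p = 0.043, lost with any further library left out; 100% above 40% by 1.93, adjusted p = 0.0018). NPF5.1 D1007_28888 had 95.6, 42.0 and 89.9 against 26.0, 23.9 and 30.9 CPM (-1.77 ± 0.20, 0.0028, at most 0.036).

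Oligopeptide transporter 7 D1007_44798 had 182, 50.1 and 231 CPM in controls and 19.9, 18.4 and 20.6 CPM at 40%. It fell by 3.37 without control leaf 2 (SE 0.31, adjusted p = 0.0012, at most 0.016 with a further library left out) and was -2.97 ± 0.50 with it (0.09). Amino acid permease 7, an amino acid carrier, was annotated at more than 1 locus. D1007_08861 had 312, 120 and 256 against 88.5, 87.8 and 109 CPM (-1.56 ± 0.21, 0.0053, or 0.053 without control leaf 1 as well), and D1007_33608, chosen after its values were seen, 59.6, 4.38 and 67.0 against 4.61, 0.737 and 7.83 CPM. Control leaf 2 was the lowest control in all 3 genes and overlapped the 40% leaves in the last. The vacuolar cationic amino acid transporter 2 D1007_39707 and ammonium transporter AMT2;1 D1007_10500, which had the most counts of their lists, were not called without control leaf 2 (adjusted p = 0.066 and 0.16).

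Cytokinin genes, with LOGL5 counted among them, moved in both directions. Of 29 tested without control leaf 2, 5 rose and 2 fell (24.1% called, against 4.99% over all genes, median 0.66). With all libraries 1 rose (LOGL5) and 0 fell of 28, with 6 higher and 3 lower at an unadjusted p below 0.05 (8.33 and 9.82% over all genes). DESeq2 with all libraries called 4 higher and 1 lower (3.73 and 4.18% over all genes). Cytokinin dehydrogenase 5 D1007_18980, which destroys cytokinins, had 0.266, 4.17 and 0.170 CPM in controls and 19.5, 13.3 and 32.7 CPM at 40% (3.80 ± 1.01 with all libraries, adjusted p = 0.12; adjusted p = 0.0016 without control leaf 2, at most 0.031 with a further library left out). The response regulators ORR4 D1007_38246 and ORR10 D1007_39074, of the type that cytokinin induces in rice, had 0.213, 11.6 and 3.12 against 78.5, 47.9 and 178 CPM and 3.46, 28.7 and 11.1 against 67.3, 40.7 and 80.3 CPM. LOGL9 D1007_60055, of the same enzyme family as LOGL5, had 26.5, 0.321 and 41.8 CPM in controls and 0.0606, 1.21 and 0 CPM at 40%. Control leaf 2 lay between the groups for the regulators and among the 40% leaves for LOGL9. These last 3 were picked with their values known (adjusted p = 0.027, 0.028 and 0.023). The calls of ORR4 and ORR10 were lost with any further library left out, and that of LOGL9 without control leaf 1 or 3 or 40% leaf 1 (up to 0.18).

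Transcription factors were among the other genes of small p over all libraries with complete separation. NF-YA2 D1007_53120, of a family that binds CCAAT boxes, had 47.8, 39.4 and 40.2 CPM in controls, 16.9, 14.9 and 18.5 CPM at 40% and 58.1, 56.6 and 52.7 CPM at 100%. It was low in the 40% leaves alone (-1.35 ± 0.18, adjusted p = 0.081 with all libraries and 0.0067 without control leaf 2; 100% above 40% by 1.99, 0.00048). MADS47 D1007_57058, of a MADS-box family that in rice restrains brassinosteroid responses, was also lowest at 40%, while its 100% leaves lay within the range of the controls, with 92.6, 41.0 and 120 against 14.6, 12.4 and 17.9 CPM and 47.1, 69.2 and 83.3 CPM at 100%. TCP5 D1007_04660, of a family that limits leaf cell division, was instead highest at 40%, with 7.19, 11.7 and 5.96 against 28.8, 27.2 and 33.5 CPM and 9.66, 12.6 and 7.56 CPM at 100%. In all 3 control leaf 2 was the control nearest to the 40% leaves. The NF-YA2 call was lost without control leaf 1 as well (0.071), and that of MADS47 (-2.81 ± 0.27 without control leaf 2, adjusted p = 0.0014) with no further library left out (at most 0.016).

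The remaining genes of that rule are given by their ranges. Gamma-glutamylcyclotransferase D1007_60459, of glutathione turnover, ranged from 16.5 to 42.0 CPM in controls and from 126 to 185 CPM at 40%, and F-box protein D1007_22872 from 2.08 to 4.43 and from 11.5 to 24.6 CPM. Lower were the locus D1007_31348 annotated as alliin lyase (192 to 491 against 36.7 to 51.2 CPM), cytochrome P450 89A2 D1007_49928 (12.9 to 22.9 against 2.79 to 4.21 CPM) and G1-like2 D1007_46453 (30.0 to 60.2 against 3.17 to 6.32 CPM). So were the glycosyltransferase UGT85A3 D1007_55561 (38.5 to 70.6 against 10.2 to 18 CPM) and PIRL5 D1007_36888, a leucine-rich repeat protein (4.16 to 13.6 against 0.788 to 1.25 CPM). With all libraries their adjusted p was 0.09 each, and all 7 were called without control leaf 2 (from 0.0028 to 0.016). The calls for P450 89A2, G1-like2, UGT85A3, PIRL5, the F-box protein and TCP5 were lost when control leaf 3 was left out too (up to 0.22). Leaving out control leaf 1 instead ended those of P450 89A2, G1-like2, the F-box protein and TCP5. Without 40% leaf 1 those of G1-like2 and PIRL5 were lost, and without 40% leaf 2 that of PIRL5.

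In several of the largest rises without control leaf 2, that library was at or near the level of the 40% leaves. Acid phosphatase 1 D1007_40387 had 1.01, 248 and 2.16 CPM in controls and 144, 150 and 221 CPM at 40%, so that control leaf 2 was the highest of all 6. Peroxidase 4 D1007_49835, a secreted peroxidase, had 8.10, 458 and 2.33 against 948, 1275 and 528 CPM. A locus annotated as expansin-B6 (SDOW01000130.1, 11608121 to 11609642, plus strand), of cell wall loosening, had 0.0533, 14.8 and 0.114 against 19, 22.3 and 5.98 CPM. LBD37 D1007_49758, whose Arabidopsis namesake represses nitrogen responses, had 0, 8.39 and 0.114 against 4.43, 8.64 and 5.26 CPM. With control leaf 2 in the fit their adjusted p was 0.76, 0.39, 0.59 and 0.74. Jasmonate-induced oxygenase 1 D1007_36442, with 0, 1.44 and 0 against 4.18, 2.74 and 8.19 CPM, and indole-2-monooxygenase D1007_14651, of benzoxazinoid defence compounds, with 0, 0.374 and 0.114 against 5.16, 4 and 11.6 CPM, kept all 3 controls below all 40% leaves. Without control leaf 2, the calls of LBD37 and indole-2-monooxygenase were lost with any further library left out (adjusted p up to 0.18). Those of expansin-B6 and jasmonate-induced oxygenase 1 were lost without control leaf 1 or 3, the latter also without 40% leaf 1 (up to 0.12). Acid phosphatase 1 and peroxidase 4 kept theirs throughout (at most 0.03).

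The largest falls ended near no counts. Acyltransferase D1007_33085 had 191, 1.55 and 677 CPM in controls and 1.4, 1.58 and 0.418 CPM at 40%, with control leaf 2 among the 40% leaves, and was 0.707, 1.30 and 0.169 CPM at 100%. BHLH3 D1007_15094, a basic helix-loop-helix factor, had 13.8, 0.214 and 11.2 CPM in controls and no count at 40%. On a floor of 3 counts per library it was at least 48.6-fold lower with all controls and 72.3-fold lower when control leaf 2 is omitted. The locus D1007_25956 of a late embryogenesis abundant protein had 6.13, 0 and 4.60 CPM against no count, by the same floor at least 20.7-fold lower and, omitting control leaf 2, 31-fold lower. Agglutinin-1 D1007_58997 (9.16, 0.534 and 30.7 CPM), DMR6-like oxygenase D1007_54955 (1.07, 0.107 and 20.4 CPM) and reticuline oxidase D1007_23418 (8.95, 0.321 and 26.6 CPM) had at most 3 counts in any 40% leaf. The late embryogenesis, agglutinin and DMR6-like loci were under the count filter with all libraries and have a test without control leaf 2 alone. Of these 6 only the acyltransferase kept its call when any further library was left out (adjusted p at most 0.018).

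Mineral and carbon lists were called in both directions or by few members. Without control leaf 2, 3 of 36 potassium transport genes rose and 3 fell (16.7% called, against 4.99% over all genes), 3 of 84 genes of sugar transport, sucrose and starch rose and 6 fell (10.7%), 0 of 46 of iron and zinc rose and 4 fell (8.70%), and 2 of 13 of sulfate rose and 0 fell (15.4%). With all libraries 0 of each were called by edgeR. At an unadjusted p below 0.05 higher and lower were 5 and 3, 8 and 10, 3 and 8, and 5 and 2. By DESeq2 they were 4 and 3, 5 and 6, 3 and 6, and 4 and 0. Over all genes the shares were 8.33% higher and 9.82% lower at that unadjusted p, and 3.73 and 4.18% by DESeq2. LSI2 D1007_20063, a silicon efflux carrier, had 766, 927 and 947 CPM in controls, 349, 387 and 264 CPM at 40% and 641, 566 and 583 CPM at 100%, without overlap (-1.4 ± 0.23, adjusted p = 0.09 with all libraries and 0.02 without control leaf 2, up to 0.17 with a further library left out). Starch synthase 2-2 D1007_05718 had 48.6, 17.1 and 54.6 against 10.9, 8.38 and 8.49 CPM (-2.46 ± 0.23 without control leaf 2, 0.0014, at most 0.016) and the monosaccharide carrier MST1 D1007_44165 78.8, 33.3 and 72.4 against 13.9, 13.6 and 12.6 CPM (-2.48 ± 0.34, 0.0054, or 0.054 without control leaf 1 as well). In mugineic acid synthesis, the source of the iron chelators of grasses, nicotianamine aminotransferase 1 D1007_26705 had 85.2, 12.8 and 123 against 17.6, 15.4 and 19 CPM (-2.56 ± 0.25, 0.0014, at most 0.016), with control leaf 2 below the 40% leaves. Of sulfate genes, ATP sulfurylase 2 D1007_33571, the first step of sulfate assimilation, had 9.91, 28.7 and 12.7 against 42.5, 34.7 and 52.6 CPM (1.95 ± 0.26, 0.0049, up to 0.059; 0.12 with all libraries). The potassium channel AKT2 D1007_02001, of the phloem, had 201, 151 and 216 against 96.2, 83.6 and 92.5 CPM (-1.18 ± 0.25, 0.03, lost with any further library left out).

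Genes of abscisic acid and the clock were checked beside these. NCED1 D1007_28942, the rate-limiting step of abscisic acid synthesis, had 31822, 16485 and 21778 CPM in controls and 7806, 9093 and 8032 CPM at 40%, without overlap, but was not called (-1.49 ± 0.45, adjusted p = 0.14; 0.067 without control leaf 2). REVEILLE 2 D1007_41973, a clock-related factor with a morning peak in Arabidopsis, had 120, 388 and 72.6 against 415, 398 and 299 CPM, so that control leaf 2 lay among the 40% leaves. Of 20 clock genes 2 rose and 0 fell without control leaf 2 (10% called, against 4.99% over all genes). With all libraries 0 were called (1 higher and 3 lower at an unadjusted p below 0.05, and 1 and 1 by DESeq2). Over all genes the shares were 8.33% higher and 9.82% lower at that unadjusted p, and 3.73 and 4.18% by DESeq2. The sources used here do not give the hour of harvest, and its part in these results was not tested.

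Between roots at 40% and control roots 67 of 21895 genes were called (0.306%), with all 3 control roots in the fit. The response in root differed from that in leaf in 456 of 24046 genes (1.90%), 294 with a more positive change in root (1.22%) and 162 with a more negative one (0.674%), by a test of the difference on all 18 libraries. The named genes were chosen mostly for their change in leaf, which enters this difference, so that 39 of 101 of them passing it is no independent result.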

How the data were processed

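Libraries were prepared with a NEBNext Ultra RNA kit from TRIzol-extracted RNA, per the labels' protocols. The deposited values are raw read counts per gene, and gene lengths in the same table, other values per the file headers, were not used. HISAT2 2.0.5, featureCounts 1.5.0-p3, DESeq2 1.20.0, CASAVA 1.8 and fastp are named without roles in the submitters' processing notes. The notes also name a mouse build, whereas all 68630 loci lie on barley scaffolds, whose positions are given here; the sources used here do not give strand use or how shared reads were counted. Gene names are the table's automatic annotations. Loci assembled from reads (5073) may overlap annotated genes.

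Tests on these counts used edgeR 4.0.16 under R 4.3.3 (quasi-likelihood, TMM, filterByExpr with minimum count 10 and total 15, Benjamini-Hochberg over all genes, 2-sided). All 9 leaf libraries were fitted together (6 residual degrees of freedom, biological coefficient of variation 45.8%), or the 8 without control leaf 2 (5 degrees of freedom, 46.9%). Scripts were tested on simulated data. CPM values are scaled to the library total. DESeq2 1.42.0 and limma 3.58.1 were alternatives. Replicate numbers were not used to pair the samples, although the residual correlations given below do not exclude pairing. Members and the 47 gene lists (found by words in the annotation) were chosen with earlier results of these data known. Genes named were all those called, the 8 rises and 8 falls of smallest p with complete separation and at least 5 CPM, the 8 largest of each without control leaf 2, and per list the member of most counts and up to 2 called; 23 others were chosen after their values were seen.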

Additional observations from a re-analysis of the deposited data

Results flagged for a closer look

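For 39 of the 101 named genes the response to 40% in root differed from that in leaf, by a test of the difference itself on all 18 libraries (edgeR, adjusted p below 0.05, from 0.0052 to 0.049). The named genes were chosen mostly for their change in leaf, and that change is part of the difference, so nothing is read from the count of 39. Values below are root minus leaf on the log2 scale, with 32 positive and 7 negative. Of the 39, 0 were called in root alone, where 0.306% of all genes were, and 0 lost the call without control leaf 2. Leaving out each of the 12 compared libraries in turn left 1 of the 39 with its call throughout, PIRL5 D1007_36888, which differed by 4.39 (adjusted p = 0.0052, at most 0.043; leaf -3.18, root 1.22).

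In senescence and breakdown the difference was 6.64 for SAG39, 5.34 for STAY-GREEN, 4.42 for pheophytinase, 2.62 for pheophorbide a oxygenase, 1.92 for NYC1 and 2.04 for SAG12. It was 2.81 for RD21B, 2.61 for oryzain alpha, 2.45 for vacuolar-processing enzyme and 2.04 for KAT2. Isocitrate lyase gave 9.42, endonuclease 4 9.30, BHLH3 12.34, agglutinin-1 11.28 and acyltransferase D1007_33085 9.18, values that depend on the prior count because 40% leaves had few or no counts. Among nitrogen genes glutamine synthetase D1007_38808 gave 2.28, NPF6.4 1.69, oligopeptide transporter 7 3.33, amino acid permease 7 D1007_08861 1.84, cationic amino acid transporter 2 1.66, uricase 1.6 and DUR3 3.11. Cytokinin dehydrogenase 5 gave -4.46, ORR4 -6.27 and ORR10 -3.77. Other differences were -2.48 for gamma-glutamylcyclotransferase, -2.65 for F-box protein D1007_22872, 3.42 for alliin lyase, 2.25 for P450 89A2, 2.42 for MADS47, 3.32 for G1-like2 and 2.19 for UGT85A3. LSI2 gave 2.31, MST1 2.95, starch synthase 2-2 2.55, low affinity sulfate transporter 3 D1007_43846 -1.90, ATP sulfurylase 2 -2.46 and flavone O-methyltransferase 1 D1007_43065 1.77.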

How the results depend on the processing

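With all libraries the 2 calls stayed 2 with RLE factors, library size alone, scaling without the 20 most abundant genes or a minimum of 5 CPM in 3 libraries. They became 6 with no filter on low counts, 13 with the compared libraries alone, 1518 with all libraries of leaf and root in 1 fit, 1585 with DESeq2 and 2123 with weighted limma voom. They became 0 with a minimum log2 change of 1 (987 at an unadjusted p below 0.05) and 0 with the replicate block (3282 at an unadjusted p below 0.05). Leaving out 1 library gave 0 to 1035, the latter without control leaf 2 (2004 to 2831 at an unadjusted p below 0.05 where it was 0).

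Without control leaf 2 the 1035 calls became 2414 with DESeq2, 2526 with all libraries of leaf and root, 2480 with the compared libraries alone, 2605 with weighted limma voom, 253 with a minimum log2 change of 1 and 631 with the replicate block. Leaving out a further library gave 157 to 620. Same-numbered libraries had residual correlations of -0.06, 0.076 and 0.086, and on these low values the block was not used. Yet 2 of 3 control leaves correlated best with their own number, so pairing is not excluded.

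Of the 92 named genes called without control leaf 2, 76 stayed called with the block, 91 with DESeq2, 50 with a minimum change of 1, and 32 when each further library was left out in turn. For named genes with all libraries, direction reversed in 4 cases: the chlorophyll-binding gene D1007_43312, at 0.17, was -0.05 without control leaf 3 (-0.05 to 0.40 with 1 library left out), and Rubisco activase D1007_06852, at -0.07, was 0.11 with limma voom, 0.21 without control leaf 2 and 0.09 without 40% leaf 3 (-0.19 to 0.21 with 1 left out). None of these values was called, and the cause was not tested. List medians moved by less than the spread between replicates for 48 of 48 with library size alone and for 39 without control leaf 2. That spread was the larger of those within the controls and within the 40% leaves, with control leaf 2 included. As control leaf 2 can widen it, the 39 is no measure of stability.

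Other comparisons drew on the counts 3730 (100% against 40% in leaf), 67 (root) and 456 (root minus leaf). These ranged from 1501 to 3489, 0 to 151 and 2 to 1348 with 1 library left out, and the root and root-minus-leaf counts became 17 and 211 with the replicate block. With library size alone 36.9% of the calls of 100% against 40% were higher, against 59.6% with TMM.

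At 16489656 to 18985201 counts a library, 3 counts are 0.158 to 0.182 CPM, so levels near that cannot be told from 0; this covers counting error only. Leaving out control leaf 2 leaves 2 controls. Alternatives for the root, root-minus-leaf and 100% against 40% comparisons, and DESeq2 counts of lists, were added after seeing the data. Causes of these shifts were not tested.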

Other observations

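Core histones and ribosomal proteins, cytosolic and organellar in 1 list, were called at shares near or below the 4.99% over all genes. Of 83 histone genes 3 rose and 0 fell without control leaf 2 (3.61% called, with a median of 0.74 against 0.02 over all genes). With all libraries 0 of 74 were called (14 higher and 1 lower at an unadjusted p below 0.05, DESeq2 3 and 0). Over all genes the shares were 8.33% higher and 9.82% lower at that unadjusted p, and 3.73 and 4.18% by DESeq2. Histone H2B.1 D1007_34783 had 8.53, 28.3 and 5.56 CPM in controls and 43.9, 60.8 and 46.3 CPM at 40%. Histone H3.3 D1007_39880 had 11.9, 20.8 and 10.8 against 30.2, 40.4 and 28.5 CPM. In the list of ribosomal proteins 3 of 283 rose and 1 fell (1.41%), and the genes named by rule were plastid-type ones, 50S protein 6 D1007_17009 at 67.5, 104 and 64.8 against 126, 178 and 146 CPM and 30S protein S1 D1007_23877 at 40.6, 92.0 and 52.6 against 111, 94.8 and 96.8 CPM. The calls of these 4 genes without control leaf 2 (adjusted p from 0.021 to 0.03) were lost when control leaf 1 or 3 or 40% leaf 1 or 2 was left out too. Those of histone H2B.1 and 50S protein 6 were also lost without 40% leaf 3.

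Without control leaf 2, 5 of 46 flavonoid genes fell and 0 rose (10.9%), 6 of 77 heat shock and chaperone genes rose and 0 fell (7.79%), and 1 of 52 defence genes rose and 0 fell (1.92%), against 4.99% over all genes. With all libraries 0 of each were called by edgeR. At an unadjusted p below 0.05 higher and lower were 4 and 9, 14 and 9, and 8 and 2. By DESeq2 they were 0 and 7, 6 and 5, and 4 and 1. Over all genes the shares were 8.33% higher and 9.82% lower at that unadjusted p, and 3.73 and 4.18% by DESeq2. The locus annotated as isoflavone reductase A622 (SDOW01001326.1, 396836 to 419424, minus strand) had 123, 4.43 and 113 CPM in controls, 0.788, 1.00 and 1.08 CPM at 40% and 6.19, 13.2 and 5.19 CPM at 100%. It fell by 6.91 without control leaf 2 (SE 0.44, adjusted p = 0.00039, at most 0.0086 with a further library left out; 0.09 with all libraries). Flavone O-methyltransferase 1 D1007_43065 had 280, 145 and 381 against 108, 108 and 101 CPM, with control leaf 2 above the 40% leaves. A trypsin inhibitor of the Bowman-Birk type, D1007_07828, had 6.13, 40.1 and 7.66 CPM in controls, 62.8, 83.7 and 64.9 CPM at 40% and under 1 CPM in every 100% leaf (log2 -6.17 against 40%, adjusted p = 0.0015). Heat stress factor A-2d D1007_16146 had 32.5, 40.4 and 21.2 against 91.2, 87.5 and 73.3 CPM and 325, 374 and 368 CPM at 100%, so that the rates stood in order. Aquaporin PIP2-7 D1007_43018 had 30.3, 451 and 27.3 against 319, 277 and 523 CPM, and nicotianamine synthase 9 D1007_37407 1895, 580 and 2485 against 462, 542 and 668 CPM, with control leaf 2 among the 40% leaves in both. Low affinity sulfate transporter 3 D1007_43846 had 74.4, 140 and 68.7 against 216, 186 and 217 CPM. NPF5.10 D1007_48836 had 112, 42.7 and 112 against 41.9, 37.7 and 64.6 CPM.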
